A study of Mus musculus with 64 samples.

Results

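Oncofetal markers of hepatocellular carcinoma were followed tumour by tumour in mouse liver. The set held 8 genes: Afp, Gpc3, Golm1, Spink1, Cd24a, Sox9, Epcam and Krt19. They were chosen by annotated gene symbol among the 25697 probes of the deposited array values. A probe was found for 7 of the 8 genes, 9 probes in all, with a pair each for Gpc3 and Golm1, and no probe annotated to Epcam was used here. After a filter on dim probes, 5 of the 8 were tested among 10495 genes: Afp, Gpc3, Golm1, Spink1 and Sox9.

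All animals were male C57BL/6 mice injected with 50 mg/kg of diethylnitrosamine (DEN), a liver carcinogen, at 2 weeks of age. Gavage with 2 doses a day began at about 44 weeks and lasted 28 days, with tissue collected at 48 weeks from mice fasted for 3 h. They received placebo, 30 mg/kg BEZ235 (a dual inhibitor of the kinases PI3K and mTOR), 10 mg/kg RAD001 (everolimus, an allosteric inhibitor of the mTORC1 complex), or both drugs together at 2.5 mg/kg RAD001 and 18 mg/kg BEZ235, called the combination. Illumina arrays measured 27 livers (7 placebo, 6 BEZ235, 7 RAD001, 7 combination) and 37 tumours, from 31 mice in all. Each of placebo, BEZ235 and RAD001 gave 10 tumours from 6 mice, and the combination gave 7 tumours from 4 mice. Livers carried DEN exposure as well, so that no group was free of the carcinogen.

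Oncofetal genes are active in fetal liver, silent or low in the adult organ and active again in many liver cancers. Alpha-fetoprotein, the product of Afp, is a serum protein of the fetus that belongs to the albumin family. Glypican-3 (Gpc3) is a heparan sulfate proteoglycan of the cell surface, and Golm1 encodes a Golgi membrane protein that is shed into serum in liver disease. Spink1 encodes a secreted trypsin inhibitor of the pancreas. Sox9, Krt19 and Epcam mark bile duct and progenitor cells of the liver, and Cd24a encodes a surface glycoprotein of progenitor cells.

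The promoter table used here held 4 of the 8 members, Epcam among them, and the windows of the 3 that were tested are shown, since all 3 were higher in tumours, as described below. The windows run from 250 bases before to 49 after the annotated start, from RefSeq (GRCm38.p6), 5′ to 3′ on the strand of the gene. They are Afp at chr5:90490464-90490763 (plus strand), Golm1 at chr13:59675735-59676034 (minus strand) and Gpc3 at chrX:52613925-52614224 (minus strand). Capitals mark matches, on either strand, to 5 motifs. The TATA box was searched as TATAAA and the half-site of the liver factor HNF1 as GTTAAT. The core of FOXA sites was searched as TGTTTNC, the GC box as GGGCGG and the CCAAT box by the letters of its name.
Afp: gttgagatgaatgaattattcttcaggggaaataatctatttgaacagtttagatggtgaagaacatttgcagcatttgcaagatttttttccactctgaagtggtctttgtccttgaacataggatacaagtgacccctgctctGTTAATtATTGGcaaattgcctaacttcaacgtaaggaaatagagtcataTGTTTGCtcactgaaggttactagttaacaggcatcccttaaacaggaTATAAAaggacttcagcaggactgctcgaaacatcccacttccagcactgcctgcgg
Golm1: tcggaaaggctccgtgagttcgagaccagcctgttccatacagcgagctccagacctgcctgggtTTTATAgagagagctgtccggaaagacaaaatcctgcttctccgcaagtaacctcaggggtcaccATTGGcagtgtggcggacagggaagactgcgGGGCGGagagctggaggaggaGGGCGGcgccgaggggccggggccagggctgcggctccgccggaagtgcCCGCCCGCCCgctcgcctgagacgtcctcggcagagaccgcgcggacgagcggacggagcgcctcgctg
Gpc3: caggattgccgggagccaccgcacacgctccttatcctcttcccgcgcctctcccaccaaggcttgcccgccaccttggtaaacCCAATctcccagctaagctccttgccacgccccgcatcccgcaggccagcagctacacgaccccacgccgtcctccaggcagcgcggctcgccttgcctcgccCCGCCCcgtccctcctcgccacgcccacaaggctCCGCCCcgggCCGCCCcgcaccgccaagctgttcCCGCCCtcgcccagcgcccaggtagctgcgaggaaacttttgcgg
The Afp window held 40% G and C with 3 CpG, against medians of 52.7% and 7 CpG over 32851 promoter windows. It had a TATA box at position -7 from the start, an HNF1 half-site at -105, a FOXA core at -55 and a reversed CCAAT box at -98, none overlapping another. Golm1 and Gpc3 lay at the other end, with 67% and 70.7% G and C and 30 CpG each. Each of them held 4 GC boxes, a pair of which overlapped in Golm1, and a CCAAT box, on the minus strand in Golm1 and on the plus strand in Gpc3, and Golm1 also held a reversed TATA box at -185. Of all windows, 13.6% held the TATA box, 7.1% the HNF1 half-site, 20.5% the FOXA core, 35.7% the GC box and 37.4% the CCAAT box. A match describes letters in the window and shows no binding.

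Levels are given as log2 of background-corrected intensity plus 16, so that the background limit lies at 4.92 and lower values have no order. The tumours of an animal were averaged, and n counts animals. Adjusted p values are from limma with Benjamini-Hochberg adjustment over all 10495 genes, and a gene passed at 0.05. A probe counted as above background past 2 noise SDs. The labelled tissue was checked by 8 tested hepatocyte markers, of which 1 rose (Alb) and 1 fell (Serpinc1, by 0.45, adjusted p = 0.0316) between placebo liver and placebo tumour. In that comparison 34.8% of all genes passed. Ttr stood at 14.94, Apoa1 at 14.90, Ambp at 15.15, Hpx at 15.23, Apoh at 11.90 and Serpinc1 at 9.29 in placebo tumours, the Alb probe was dim at 7.34, and Fgb lay below the background limit at 4.51.

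Placebo tumours were compared with placebo livers first, to see which markers distinguished tumour from liver without a drug. All 5 tested members were higher in tumours, where 34.8% of all genes passed, 1969 upward and 1682 downward. The median difference of the 5 was 3.33 on the log2 scale, against 0.01 over all genes. Gpc3, Spink1 and Golm1 ranked 7, 10 and 68 by size among the 10495 genes, and no rank is given for Afp, which was below the background limit in most placebo livers.

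Gpc3, the glypican, spanned 5.88 to 8.49 in placebo livers (median 7.07, n = 7) and 10.54 to 13.56 in placebo tumours (median 12.03, n = 6). No tumour animal fell into the range of the livers, though tumour 3 of animal 747 did by itself (7.47). The share of all genes without overlap of animals is not given here, in this or the other comparisons. The means were 12.16 ± 1.02 (SD) in tumours and 7.18 ± 0.80 in livers, a fitted difference of 5.01 (SE 0.75, adjusted p = 4.85e-07 by limma), which is 32.3-fold. The other Gpc3 probe gave 5.75 (adjusted p = 3.00e-07).

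Spink1, the trypsin inhibitor, spanned 5.51 to 7.03 in placebo livers (median 6.52) and 9.08 to 13.51 in tumours (median 11.50). The groups did not overlap, but tumours were widely spread, with 11.30 ± 1.97 (SD, n = 6) against 6.40 ± 0.56 (n = 7) in livers. The fitted difference was 4.91 (SE 0.64, adjusted p = 3.43e-08 by limma), or 30.1-fold.

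Golm1, the Golgi protein, had the tightest groups of the 4. It spanned 6.45 to 7.78 in placebo livers (median 6.81) and 9.57 to 11.01 in tumours (median 10.47). Its mean rose from 6.97 ± 0.48 (SD, n = 7) to 10.31 ± 0.54 (n = 6), a fitted difference of 3.33 (SE 0.37, adjusted p = 8.19e-10 by limma). The other Golm1 probe gave 3.40 (adjusted p = 4.48e-10).

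Afp was near background in most livers: its probe was above background in 2 of 7 placebo livers and in 10 of 10 placebo tumours. Livers spanned 4.35 to 6.18 (median 4.50) and tumour animals 6.66 to 9.89 (median 8.11), without overlap. Tumour 1 of animal 710 lay inside the range of the livers by itself (5.02). The means were 4.79 ± 0.66 (SD, n = 7) and 8.14 ± 1.26 (n = 6), and the fitted difference was 3.32 (SE 0.62, adjusted p = 2.70e-05 by limma). With an offset of 50 in place of 16 the Afp difference was 2.38 (adjusted p = 5.88e-05), since dim livers are drawn toward the offset.

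Sox9, a transcription factor of bile duct and progenitor cells, differed least. It spanned 4.31 to 5.80 in placebo livers (median 5.02) and 4.86 to 6.62 in tumours (median 5.78), and the groups overlapped. Its difference of 0.73 (SE 0.24, adjusted p = 0.0157 by limma) was 1.66-fold. The probe was above background in 4 of 7 placebo livers and 8 of 10 placebo tumours. With an offset of 50 in place of 16 the Sox9 difference was 0.42 (adjusted p = 0.0203). At the offset of 16, Sox9 did not pass without animal 771 (0.52, adjusted p = 0.127), nor when separate tumours entered unaveraged (0.57, adjusted p = 0.102).

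Cd24a and Krt19 did not pass the filter on dim probes. The Cd24a probe was above background on 1 of 64 arrays, with a highest intensity of 17.9 against a limit of 14.1. Krt19, a keratin of bile ducts, was above background on 4 of 64 arrays, all of them tumours, at up to 34.0. In a fit without the filter, over 16593 genes, the tumour-minus-liver difference in placebo animals was -0.05 for Cd24a (adjusted p = 0.818) and 0.03 for Krt19 (adjusted p = 0.908).

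**Figure D1:**
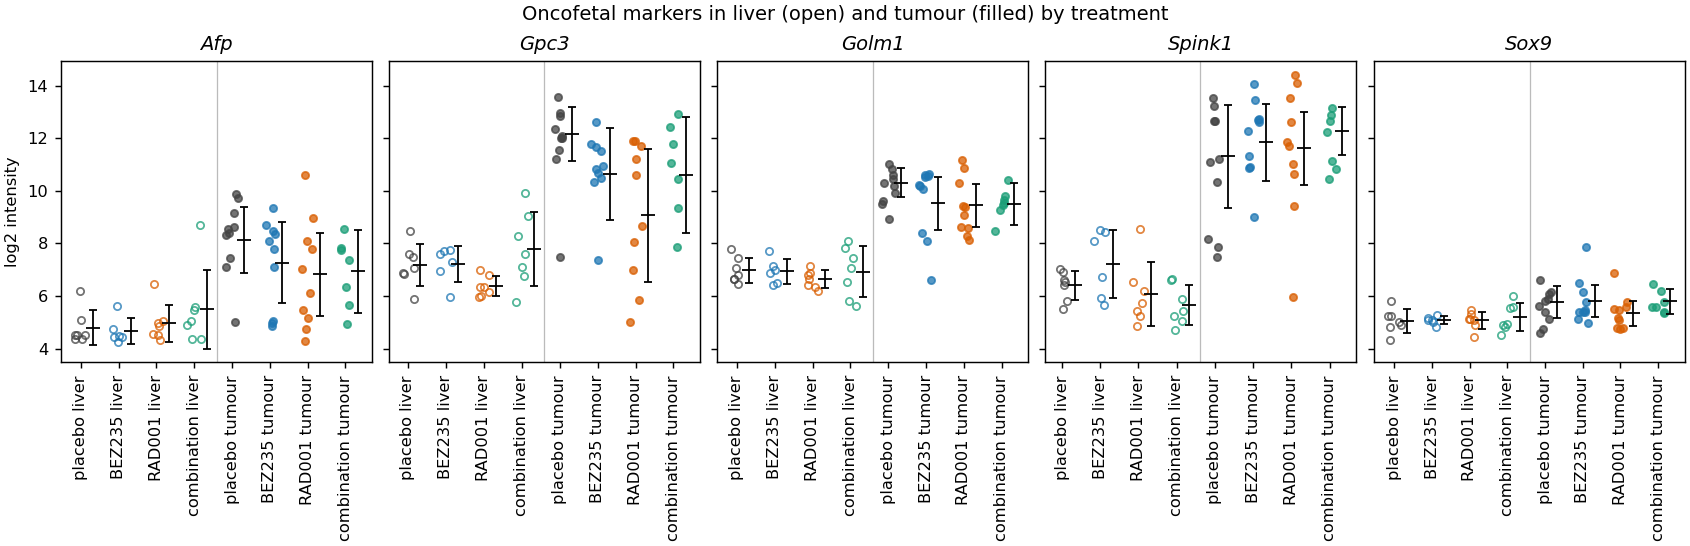
Log2 intensity of the 5 tested members on every array, by tissue and treatment. Each circle is an array, open for liver and filled for tumour, and the bar beside it is the mean ± SD over animals. The means of Gpc3, Spink1, Golm1 and Afp were higher in placebo tumours than in placebo livers, at 12.16, 11.30, 10.31 and 8.14 against 7.18, 6.40, 6.97 and 4.79. Circles of these groups overlapped in Sox9, and also in Gpc3 (747 tumour 3 at 7.47) and Afp (710 tumour 1 at 5.02).

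Other genes that share a role with the members were counted in the same comparison, in which 34.8% of all genes passed. Of 9 tested other oncofetal genes, 2 rose and 0 fell in placebo tumours: Scd2, a desaturase (1.997, adjusted p = 2.80e-07, from 4.89 in livers, below the background limit), and Pkm, a pyruvate kinase (1.09, adjusted p = 0.000846). Igf2, the fetal growth factor, differed by 0.13 (SE 0.67, adjusted p = 0.912). Both measured relatives of Afp in the albumin family rose, Afm by 0.95 (adjusted p = 0.0148) and Alb by 0.79 (adjusted p = 0.0224), the latter on a dim probe at 7.34 in tumours. Of 4 tested glypicans and sulfatases, which bear or trim heparan sulfate, 1 passed, Gpc6 (0.48, adjusted p = 0.000641), with both means below the background limit (4.91 in tumours and 4.43 in livers), so that its direction cannot be read. Gpc4 differed by 0.58 (adjusted p = 0.0967) and Gpc1 by 0.64 (adjusted p = 0.161).

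Of 9 tested transcription factors known to act on Afp, 3 passed, a share close to the 34.8% of all genes. Foxa3 rose by 1.12 (adjusted p = 2.80e-05), while Cebpa (-1.0002, adjusted p = 4.24e-06) and Cebpb (-0.93, adjusted p = 1.15e-05) fell. Zhx2, a repressor of Afp in adult mouse liver, differed by -0.38 in placebo animals (SE 0.18, adjusted p = 0.102). In BEZ235 animals Zhx2 was lower in tumours by -0.61 (adjusted p = 0.0113), in RAD001 animals by -0.62 (adjusted p = 0.00736), and in combination animals by -0.44, which did not pass (adjusted p = 0.127). Set against the placebo difference, these lay at -0.23 (adjusted p = 0.971), -0.24 (adjusted p = 0.845) and -0.06 (adjusted p = 0.973), so that none was shown to differ from it.

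Markers of other cells were set beside the members, since Spink1 is also a gene of the pancreas and Sox9 of bile ducts. Their counts stand against the 34.8% of all genes that passed. Of 4 tested pancreatic acinar markers, Cela1 rose (1.20, adjusted p = 0.00125) and Amy2a5 fell (-1.36, adjusted p = 3.24e-07). Ctrb1, a defining acinar protease, stood at 4.64 in placebo tumours, below the background limit. Of 6 tested biliary markers, 2 rose, a share close to that of all genes. They were Cdh1, the epithelial cadherin, by 2.12 (adjusted p = 1.62e-05) and Anxa4 by 0.96 (adjusted p = 0.000821). Krt7, a keratin of bile ducts, differed by -0.08 (adjusted p = 0.779). Its means lay at the background limit (4.89 in placebo tumours and 4.97 in placebo livers), so its direction cannot be read. None of 3 tested B cell and 4 tested neutrophil markers passed, and of 3 erythroid markers Alas2 fell (-2.53, adjusted p = 5.51e-10). The part of these cells in the members' values was not tested, and in bulk tissue fewer cells of a type and less RNA per cell cannot be told apart.

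Hepatocyte function genes, which encode metabolic enzymes and a transporter of adult liver, went the other way. All 11 tested genes of the list fell in placebo tumours, with a median of -2.33. Cyp2f2, a cytochrome P450, fell by 4.32 (adjusted p = 1.06e-11), and Slco1b2, an organic anion transporter, fell by 3.20 (adjusted p = 1.01e-08).

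Treated tumours were then compared with livers of the same treatment. Spink1 differed most of all 10495 genes in each of the 3 treatments, and Golm1 and Gpc3 passed in all 3. Afp passed under BEZ235 and RAD001, and Sox9 under BEZ235. Thus 5 of 5 members passed under BEZ235, where 26% of all genes did, 4 of 5 under RAD001 (28.5%) and 3 of 5 under the combination (19.2%). Without animal 775 the combination gave 1264 genes past the limit, against 2013. All fitted differences were positive.

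Spink1 rose by 4.62 under BEZ235 (SE 0.66, adjusted p = 8.39e-07 by limma), by 5.49 under RAD001 (SE 0.64, adjusted p = 6.69e-09) and by 6.60 under the combination (SE 0.72, adjusted p = 1.90e-08). The last is 97.3-fold. The probe was above background in 6 of 7 combination livers, and the livers were dim, so this fold depends in part on the offset. In combination animals its tumours stood at 13.14 (775), 12.89 (773), 11.88 (713) and 11.17 (726), and the 7 livers at 4.70 to 6.63 (median 5.45). In none of the 3 treatments did tumour and liver animals overlap. By itself, however, tumour 1 of animal 763 (RAD001) stood at 5.94, inside the range of RAD001 livers (4.86 to 8.56).

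Golm1 rose by 2.58 under BEZ235 (adjusted p = 1.47e-06), 2.79 under RAD001 (adjusted p = 7.75e-08) and 2.57 under the combination (adjusted p = 1.45e-05), again without overlap of animals. By itself, tumour 2 of animal 759 (BEZ235) stood at 6.61, inside the range of BEZ235 livers (6.43 to 7.70). Gpc3 rose by 3.40 under BEZ235 (SE 0.77, adjusted p = 0.000674), 2.66 under RAD001 (SE 0.74, adjusted p = 0.00472) and 2.85 under the combination (SE 0.83, adjusted p = 0.0117), and its groups overlapped in all 3. The RAD001 value did not pass with the animal as a fixed replicate block (2.14, adjusted p = 0.0893). The combination value did not pass without animal 726 (2.34, adjusted p = 0.0954) or 775 (2.05, adjusted p = 0.154).

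Afp rose by 2.56 under BEZ235 (SE 0.64, adjusted p = 0.00192) and 1.86 under RAD001 (SE 0.62, adjusted p = 0.0185). Its probe was above background in 1 of 6 BEZ235 and 3 of 7 RAD001 livers, so both sizes depend in part on the offset. Tumour and liver animals overlapped in all 3 treatments. Of tumour animals, 5 of 6 (BEZ235), 3 of 6 (RAD001) and 0 of 4 (combination) lay above the highest liver of their treatment. The RAD001 value did not pass without animal 700 (1.46, adjusted p = 0.105), 727 (1.63, adjusted p = 0.0557) or 763 (1.64, adjusted p = 0.0743). Under the combination the Afp difference was 1.51 (SE 0.70, adjusted p = 0.128), and it passed without animal 742 (1.995, adjusted p = 0.0223), whose liver was high in Afp, without 773 (2.10, adjusted p = 0.0462) and with the fixed replicate block (2.16, adjusted p = 0.0457).

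Sox9 rose by 0.71 under BEZ235 (SE 0.25, adjusted p = 0.0301). It was 0.26 higher in tumours under RAD001 (SE 0.24, adjusted p = 0.456) and 0.61 higher under the combination (SE 0.27, adjusted p = 0.115), neither past the limit. The BEZ235 value did not pass without animal 712 (0.73, adjusted p = 0.0602), 728 (0.59, adjusted p = 0.0996) or 759 (0.54, adjusted p = 0.150), nor with the fixed replicate block (0.62, adjusted p = 0.0711).

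**Figure D2:**
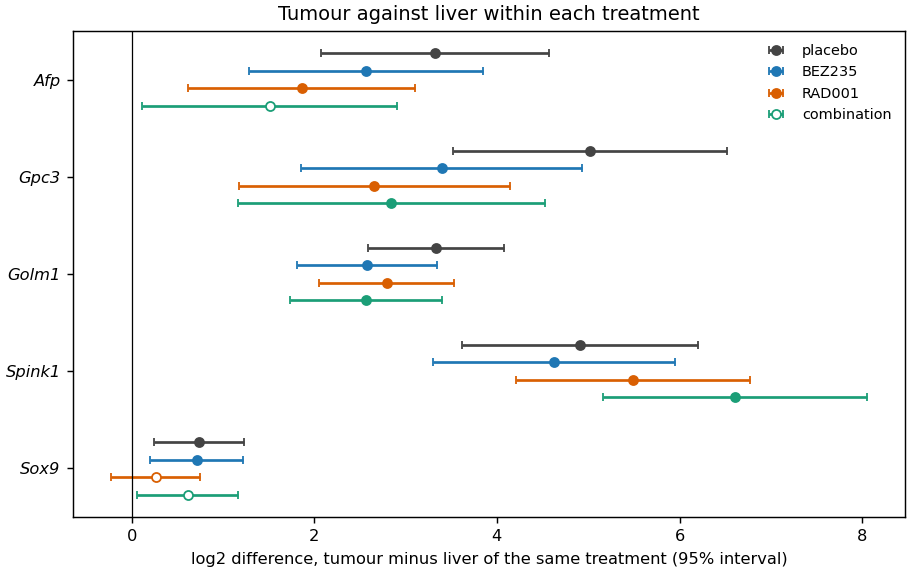
Log2 difference between tumour and liver of the same treatment for the 5 tested members, with 95% intervals from limma. Filled circles passed an adjusted p of 0.05 over all genes and open circles did not. Spink1 lay furthest right in the combination (6.60), Gpc3 in placebo (5.01), and Sox9 stayed below 1.

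Paired with its own liver, the tumour mean of an animal was higher in 18 of 18 animals for Golm1 and Spink1. It was higher in 17 of 18 for Afp, and in 16 of 18 for Gpc3 and Sox9. In Sox9, 710 (placebo, 4.86 and 4.31) and 732 (RAD001, 4.78 and 4.44) lay below the background limit in both tissues, so 2 of those 16 signs cannot be read. The animals below their own liver in Gpc3 were 732 (RAD001, 5.02 in tumour and 6.15 in liver) and 773 (combination, 7.88 and 9.03). In Afp, 730 (RAD001) lay below the background limit in both tissues (4.73 and 4.85) and 773 (combination) at it (4.93 and 4.91), so neither sign can be read. Animal 693 (BEZ235) had almost the same Gpc3 in tumour (7.36) and liver (7.31).

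Treated tumours were compared with placebo tumours, to see whether the markers differed under a drug. No member passed in any of the 3 comparisons, and neither did any other gene (0% called by limma). At an unadjusted p under 0.05, 558 genes differed under BEZ235, 740 under RAD001 and 839 under the combination. Among the members that count was 0, 1 and 0. Hepatocyte function genes lay higher in treated than in placebo tumours, with median differences over the 11 tested genes of 0.71 under BEZ235, 0.59 under RAD001 and 0.76 under the combination, against -0.01, -0.002 and -0.01 over all genes, and 0 of the 11 passed. Their part in the members' values was not tested. The 3 comparisons share the placebo tumours, so a common deviation of those 6 animals would appear in each.

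Gpc3 under RAD001 was the 1 member value under 0.05 before adjustment. RAD001 tumour animals spanned 5.02 to 11.90 (median 9.65, n = 6) and placebo animals 10.54 to 13.56 (median 12.03, n = 6). All 6 RAD001 animals lay below the placebo mean, and the groups overlapped. The difference of -3.09 (SE 1.02, 95% interval -5.20 to -0.99) was the largest of all 10495 genes by size, with an unadjusted p of 0.00598 and an adjusted p of 0.630 by limma. In the fit on all 8 groups it was -3.10 (adjusted p = 0.0813). Without animals 730 and 732, listed because their tumours lay toward liver in earlier results, it was -1.63 (adjusted p = 0.9997). They were the lowest RAD001 animals in Gpc3 (7.26 and 5.02), so leaving them out of that group alone had to shrink the difference.

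Under BEZ235 Gpc3 spanned 7.36 to 12.61 (median 11.03, n = 6), and under the combination it stood at 12.90 (775), 11.76 (726), 9.90 (713) and 7.88 (773). The differences from placebo were -1.51 (95% interval -3.61 to 0.60) and -1.55 (-3.90 to 0.81). Both intervals include 0 and also a drop of more than 3 on the log2 scale. Leaving out 1 animal in turn gave -1.90 to -0.85 under BEZ235 and -2.31 to -0.64 under the combination. The smallest drops came without animals 693 and 773. These were the lowest animals of their groups in Gpc3, so leaving them out had to shrink the differences.

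Afp differed from placebo tumours by -0.88 under BEZ235 (95% interval -2.50 to 0.75), -1.32 under RAD001 (-2.95 to 0.31) and -1.21 under the combination (-3.03 to 0.61). RAD001 animals reached from 4.73, below the background limit, to 8.81. The RAD001 value was -0.05 with the lowest-numbered tumour of each animal and -0.46 without animals 730 and 732. These were the lowest RAD001 animals in Afp (4.73 and 5.46) and in Golm1 (8.77 and 8.57), so leaving them out had to shrink both differences. Golm1 differed by -0.79 (-1.69 to 0.11), -0.87 (-1.77 to 0.03) and -0.83 (-1.83 to 0.17) in the same order, with -0.40 and -0.48 under RAD001 in those alternatives. Spink1 differed by 0.54 (-1.14 to 2.21), 0.31 (-1.37 to 1.98) and 0.96 (-0.91 to 2.84). With the lowest-numbered tumour Spink1 differed by -0.23, -0.50 and 0.81, so that its sign turned under BEZ235 and RAD001, and under RAD001 it also turned without animal 710 (-0.10), 727 (-0.08) or 747 (-0.14). Sox9 differed by 0.03 (-0.58 to 0.65), -0.43 (-1.04 to 0.19) and 0.03 (-0.66 to 0.72), and by -0.25, -0.63 and -0.09 with the lowest-numbered tumour, so that its sign turned under BEZ235 and the combination. Leaving out 1 animal in turn, Afp ranged from -1.29 to -0.44 under BEZ235, -1.72 to -0.90 under RAD001 and -1.75 to -0.54 under the combination, and Sox9 took either sign under BEZ235 (-0.15 to 0.21) and the combination (-0.19 to 0.20). None of these passed.

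The treatments were also set against each other, at doses that differ between the single agents and the combination. No member passed between combination and RAD001 tumours (0.0191% of genes called), combination and BEZ235 tumours (0%) or BEZ235 and RAD001 tumours (0.00953%). Gpc3 had the widest gaps among these, 1.59 higher under BEZ235 than RAD001 (95% interval -0.52 to 3.69) and 1.55 higher under the combination than RAD001 (-0.81 to 3.90). Gpc3 differed by -0.04 (-2.40 to 2.31) between combination and BEZ235.

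**Figure D3:**
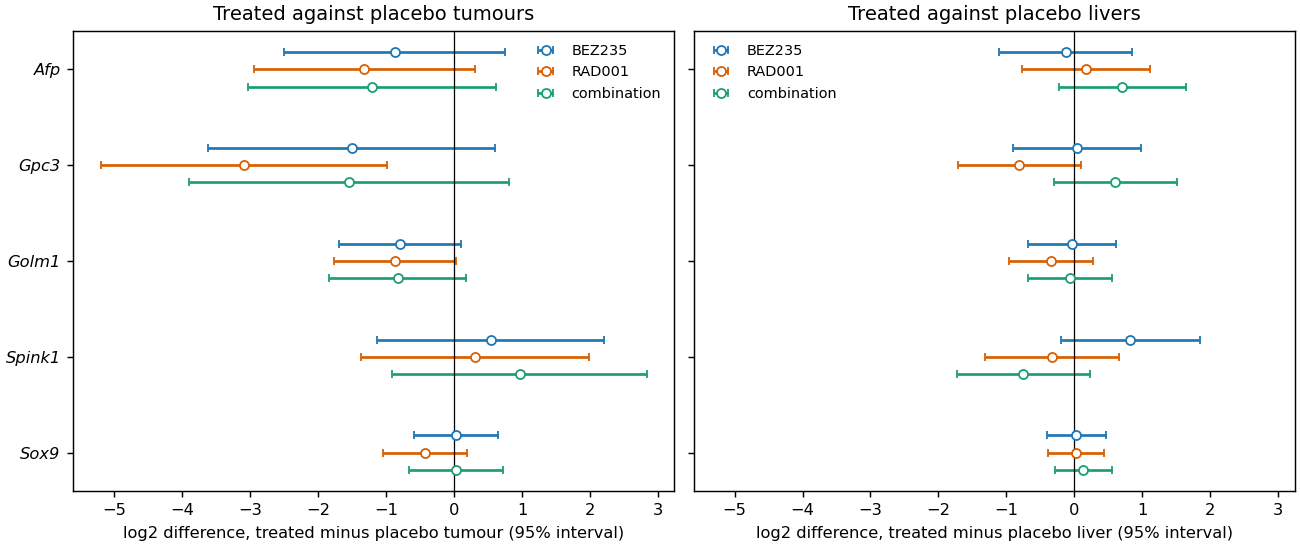
Log2 difference of treated minus placebo tumours (left) and livers (right) for the 5 tested members, with 95% intervals from limma. No value passed the limit, so all circles are open. In tumours Gpc3 under RAD001 lay furthest from 0, at -3.09, and in livers BEZ235 Spink1 lay at 0.83 and RAD001 Gpc3 at -0.81.

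In the livers themselves no member passed either. The share of all genes called was 0.0286% under BEZ235, 0% under RAD001 and 0.276% under the combination. Gpc3 was 0.81 lower in RAD001 livers (95% interval -1.72 to 0.09, adjusted p = 0.803), and all 7 of them lay below the placebo mean. Spink1 differed by 0.83 in BEZ235 livers (-0.20 to 1.85) and by -0.75 in combination livers (-1.73 to 0.24). Afp and Gpc3 were 0.70 and 0.60 higher in combination livers, where liver 742 stood at 8.71 in Afp and 9.92 in Gpc3, the highest of all 27 livers in both. Without animal 742 these differences were 0.17 and 0.25, and the Afp probe was above background in 4 of 7 combination and 2 of 7 placebo livers.

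Whether a drug acted differently in tumour and liver was asked by the difference of the 2 effects. No member passed, with 0% of genes called in the case of BEZ235, 0.0191% in that of RAD001 and 0.00953% in that of the combination. The estimates for Gpc3 were -1.62 (95% interval -3.77 to 0.53), -2.35 (-4.47 to -0.24, adjusted p = 0.623) and -2.17 (-4.42 to 0.08) in that order. For Spink1 they were -0.29, 0.58 and 1.69 (-0.24 to 3.63 for the last).

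Ordered by group mean, placebo tumours came first and RAD001 tumours last among tumours for Gpc3, Golm1 and Afp. Gpc3 ran from 12.16 in placebo through 10.65 in BEZ235 and 10.61 in combination to 9.07 in RAD001 tumours, and neighbours differed by less than the larger of their SDs. For Spink1 the order was combination (12.27), BEZ235 (11.84), RAD001 (11.61) and placebo (11.30), also with gaps inside the SDs. Between the lowest tumour group and the highest liver group the gap exceeded the SD for Golm1 (2.47) and Spink1 (4.08), and not for Gpc3 (1.28), Afp (1.33) or Sox9 (0.16).

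Group means hid large differences between tumours of the same animal. Among the 12 animals with several tumours, those tumours lay more than 1 log2 unit apart in 11 for Spink1, 9 for Afp, 8 for Gpc3, 6 for Golm1 and 4 for Sox9. The SD between tumours of an animal was 2.11 for Spink1, 1.67 for Gpc3, 1.52 for Afp, 1.09 for Golm1 and 0.67 for Sox9. The SD between animals of a treatment, taken over tumour means, was 1.53, 1.93, 1.49, 0.81 and 0.55 in the same order.

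The widest pair was in animal 763 (RAD001). Its tumour 1 had Spink1 at 5.94, close to its own liver at 5.73, while its tumour 2 had 14.41, the highest of all 37 tumours. Afp was the other way round, at 8.97 in tumour 1 and 6.13 in tumour 2. Gpc3 was alike, at 10.62 and 11.21. The mean of these tumours thus described neither.

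In animal 759 (BEZ235) the members parted again. Tumour 2 held Golm1 at 6.61, the lowest of all tumours and below its own liver (7.70), and Afp at 4.88, with Gpc3 at 10.69, Spink1 at 14.06 and Sox9 at 7.85, the highest Sox9 of any array. Tumour 1 of the same liver held Golm1 at 10.52, Afp at 7.80, Spink1 at 11.34 and Sox9 at 5.46.

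Placebo animals showed such splits too. In animal 747 Gpc3 stood at 12.94, 11.19 and 7.47 in tumours 1, 2 and 3, and tumour 3 still had Afp at 8.63. In animal 710 Gpc3 was alike in both tumours (12.093 and 11.999), while Afp was 5.02 in tumour 1 and 8.30 in tumour 2, and Spink1 was 11.08 and 7.49. In animal 772 (RAD001), tumour 1 exceeded tumour 2 in all 5 members, with Gpc3 at 11.89 and 6.97 and Golm1 at 11.18 and 8.30.

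**Figure D4:**
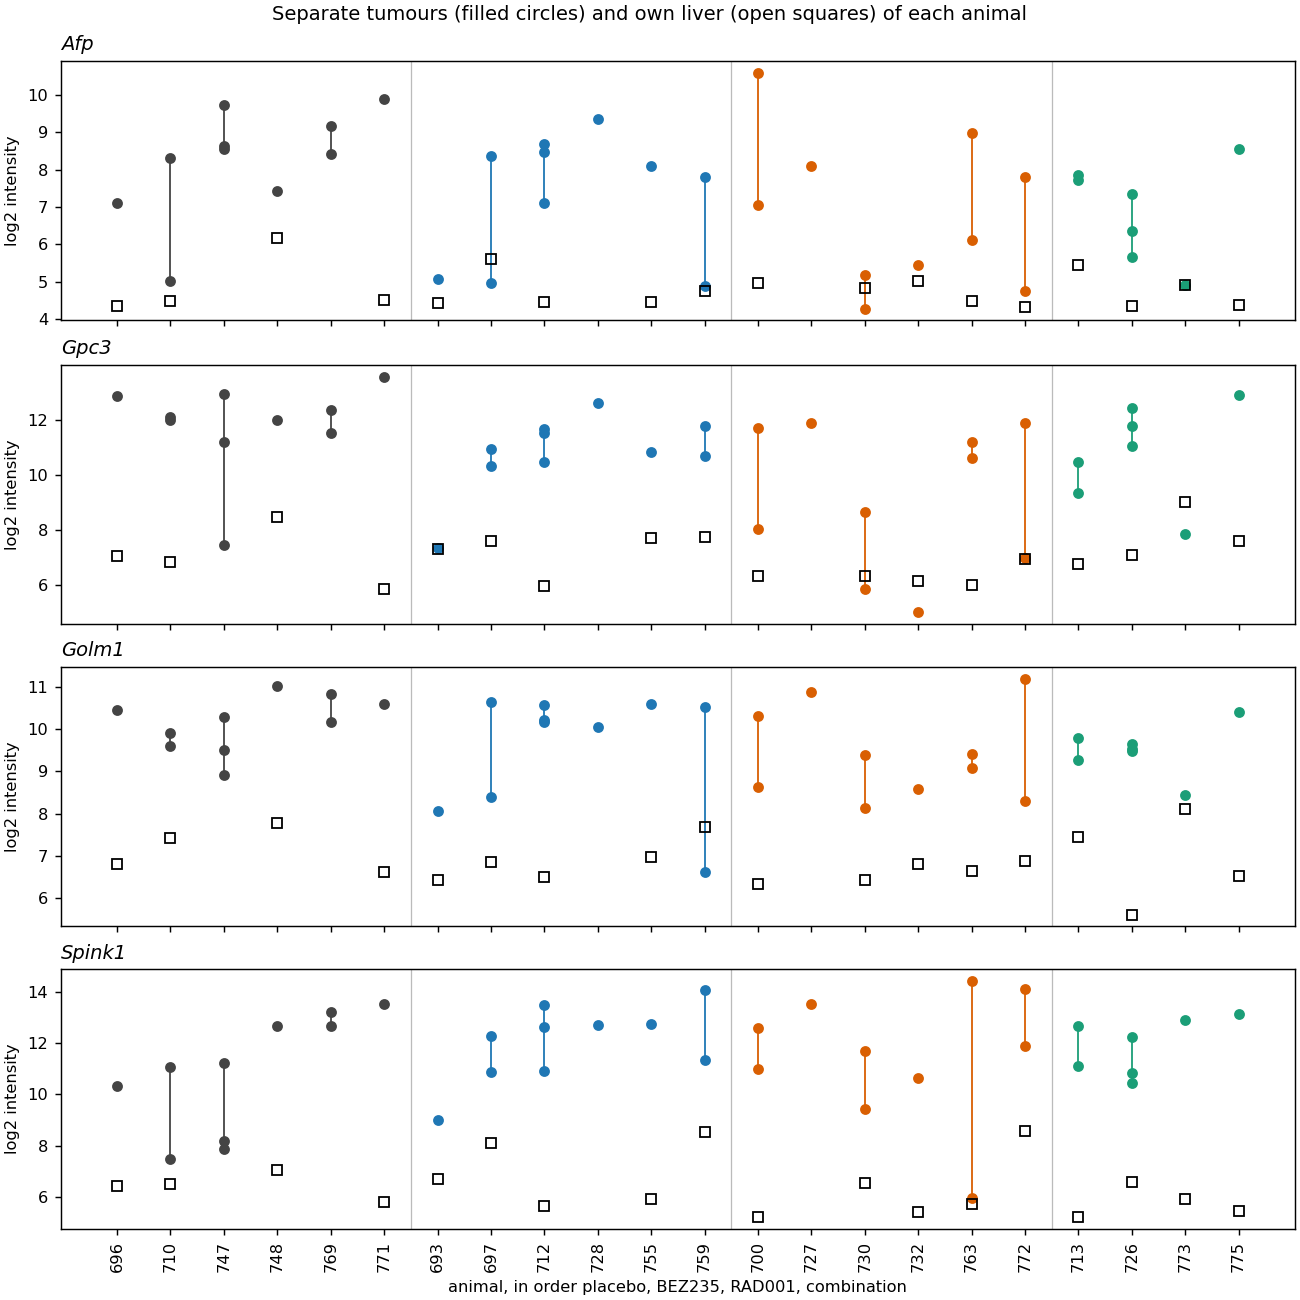
Log2 intensity of Afp, Gpc3, Golm1 and Spink1 in each tumour (filled circles, joined within an animal) and in the animal's own liver (open squares, for the 18 animals with both). Animals run from placebo through BEZ235 and RAD001 to the combination. The longest line is Spink1 in animal 763, from 5.94 to 14.41.

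Each tumour was then described by how many of Afp, Gpc3, Golm1 and Spink1 exceeded the highest placebo liver, which stood at 6.18, 8.49, 7.78 and 7.03. All 4 did in 23 of 37 tumours, 3 of the 4 in 8 tumours and 2 of the 4 in 6 tumours. No tumour had fewer. By treatment, all 4 were exceeded in 8 of 10 placebo, 7 of 10 BEZ235, 3 of 10 RAD001 and 5 of 7 combination tumours. Against the highest of all 27 livers, at 8.71, 9.92, 8.10 and 8.56, all 4 were exceeded in 4 of 37 tumours. These counts are a description, because tumours share animals. Sox9 was left out, and the 4 are the tested members that differed most between placebo tumours and placebo livers. High counts were thus partly set by the choice of members.

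By member, Golm1 and Spink1 exceeded the highest placebo liver in 36 of 37 tumours each, Gpc3 in 30 and Afp in 26. The highest of all 27 livers was exceeded by Golm1 in 35, Spink1 in 33, Gpc3 in 28 and Afp in 6, the last in 0 of 7 combination tumours, and the highest Afp and Gpc3 were both those of liver 742. The exceptions to the placebo limit were 759 tumour 2 for Golm1 and 763 tumour 1 for Spink1. The 6 tumours with 2 of the 4 were 693 tumour 1, 759 tumour 2, 772 tumour 2, 732 tumour 1, 730 tumour 2 and 773 tumour 1. All 6 exceeded it in Spink1 and had Afp at 4.29 to 5.46.

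Members were related over the 22 tumour-bearing animals, with the mean of each treatment removed. Of 10 pairs, 5 passed a permutation test within treatment with 100000 resamples, two-sided and adjusted over the 10. Gpc3 and Golm1 had r = 0.75 (rho 0.62, unadjusted p = 0.0002 and 0.00497, adjusted p = 0.00200 and 0.0141), and r was 0.66 without the 2 animals farthest from the median in Gpc3. Afp and Gpc3 had r = 0.69 (rho 0.67, unadjusted p = 0.00197 and 0.00239, adjusted p = 0.00600 and 0.0120, r = 0.60 without 2). Afp and Golm1 had r = 0.67 (rho 0.62, unadjusted p = 0.00240 and 0.00566, adjusted p = 0.00600 and 0.0141, r = 0.58 without 2).

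Golm1 and Spink1 had r = 0.66 (rho 0.67, unadjusted p = 0.00076 and 0.00053, adjusted p = 0.00380 and 0.00530, r = 0.51 without 2). Gpc3 and Spink1 had r = 0.50 (rho 0.39, unadjusted p = 0.0160 and 0.0771, adjusted p = 0.0321 and 0.0963), and without animals 732 and 693 r was 0.33 (adjusted p = 0.234). That call thus rests on those 2, and leaving out animals far from the median of Gpc3 also narrows its range. Of the 4 pairs with Sox9 none passed on Pearson's r, from 0.09 with Golm1 to 0.50 with Spink1 (adjusted p = 0.0517 for the last), while Gpc3 and Sox9 had rho 0.52 (adjusted p = 0.0360). Without animals 693, 759, 730 and 732 no pair passed. Gpc3 with Golm1 then had r = 0.68 (adjusted p = 0.0601) and Afp with Gpc3 r = 0.52 (adjusted p = 0.257). These animals held low values, 693, 730 and 732 in Gpc3 (7.36, 7.26 and 5.02) and 759 in Golm1 (8.57), while 773 (Gpc3 at 7.88) was kept. Leaving out such low values narrows the range and also leaves fewer animals for the test. The part of each in the loss of calls was not tested.

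**Figure D5:**
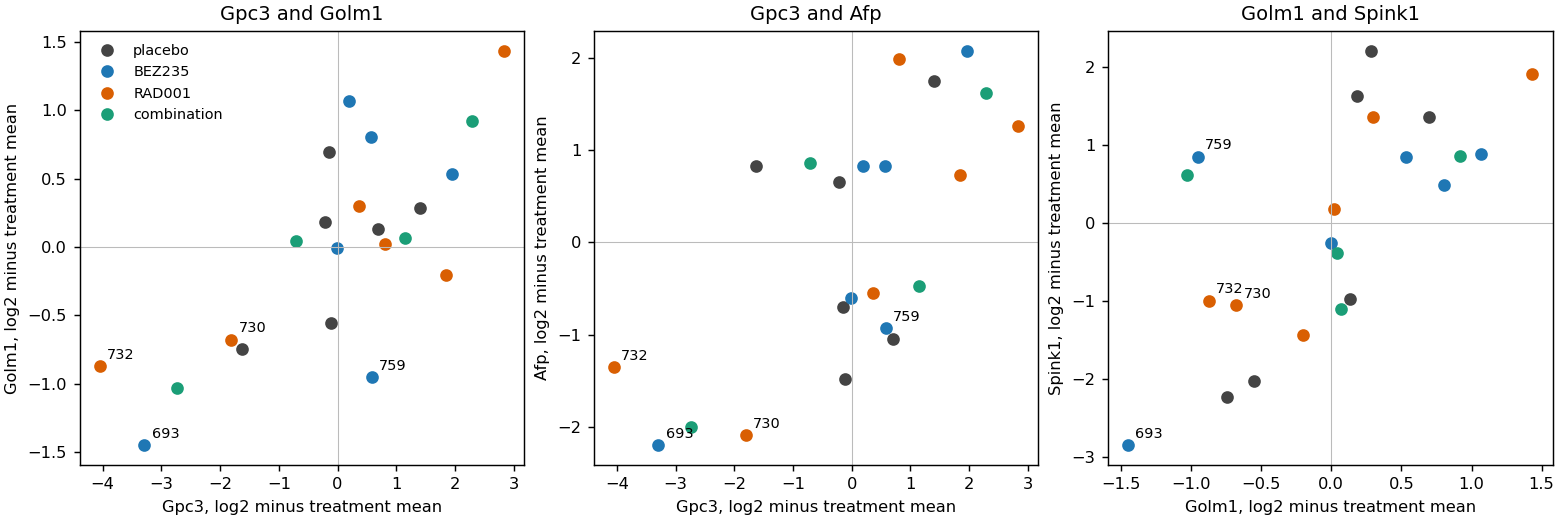
Tumour means of 22 animals for 3 pairs of members, as log2 intensity minus the mean of the treatment, coloured by treatment. Animals 693, 730, 732 and 759 are named. They lie at the lower left for Gpc3 and Golm1 (r = 0.75), apart from 759, which is low in Golm1 and not in Gpc3.

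The 4 animals lowest in Gpc3 and in Afp were also those with the highest mean of hepatocyte function genes in tumours, which did not hold for Golm1, Spink1 or Sox9. In Golm1, 693, 773 and 732 were among the lowest, but 759 (8.57) lay below 730 (8.77). The mean log2 level over 11 such genes was 12.01 to 12.61 in livers and 9.38 to 10.18 in placebo tumours. It was 11.97 in the tumour of 693 (BEZ235), 11.43 in 773 (combination), 11.25 in 732 (RAD001) and 11.17 in 730 (RAD001). Gpc3 in these tumours was 7.36, 7.88, 5.02 and 7.26, and Afp 5.06, 4.93, 5.46 and 4.73. Spink1 stayed at 9.00, 12.89, 10.62 and 10.56 there, above the 8.56 of the highest liver. Placebo animals 747 and 710, next lowest in Spink1 after 693 (9.08 and 9.28), had hepatocyte function means of 9.78 and 9.79. The part of liver tissue in these samples was not tested.

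The genes whose pattern was most like each member were taken over the same 22 animals, by Pearson's r after removing treatment means. For Gpc3 they were Fto, an RNA demethylase (r = 0.92), Xbp1, a factor of the unfolded protein response (0.92), and Cdkn2b, a cell cycle inhibitor (0.90). For Golm1 they were Erich4 (0.93), Sgsm1 (0.92) and Rogdi (0.92). Afp was most like Frmd6 (0.83), Rell1 (0.83) and Pdlim7 (0.81), and Spink1 most like Lasp1, an actin-binding protein (0.87), Ppm1f, a phosphatase (0.86), and Sult2b1, a sulfotransferase (0.83). Sox9 was most like Amz2 (0.77), Lamc3 (0.76) and Ankrd1 (0.75). These are the highest of all genes by choice and are given without a test.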

How the data were processed

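The deposited values are linear probe intensities of 64 Illumina arrays, made by the authors with background subtracted (28.9% of values lie below 0). Per the submitters' processing notes the software was BeadStudio, with its version not given in the sources used here. The 1000 brightest values of the arrays of a treatment were identical rank by rank (log2 range 0, against 0.133 over all arrays), so each treatment had been quantile-normalized on its own. A non-normalized table with 128 columns that match no sample label was not used, so detection p-values and control probes were not used here and noise was estimated from negative values.

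All arrays were quantile-normalized together, followed by normexp correction (background mean 0, SD 7.03), an offset of 16 and log2. Probes had to exceed 2 noise SDs (14.1) on at least 6 arrays, which kept 15244 of 25697 probes. In the platform annotation 23978 probes had 1 symbol, 0 several and 1719 none, and 23962 symbols were updated through Entrez numbers. The brightest probe stood for a gene, which gave 10495 genes. Array medians of the deposited values were 9.20 to 9.78 on the linear scale, and no pair of arrays was a duplicate (highest correlation 0.988).

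Animals were the replicates, identified by the number that starts each title, and tumours were averaged per animal. This number pairs liver and tumour of 18 mice. Tumour-liver comparisons and interactions used all 8 groups with the animal as random block (within-animal correlation 0.0968), and treatments were compared within the 4 tumour or 4 liver groups. Tests were limma's, two-sided (R 4.3.3, limma 3.58.1), checked on simulated data. The number of arrays limits precision. Spot-level depth is unknown.

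All 8 members and their probes are named, the members of each other list with the lowest p, and the 3 genes most like each member, leaving out predicted genes. The members and gene lists were chosen with earlier results of these data known.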

Additional observations from a re-analysis of the deposited data

Results flagged for a closer look

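Of 40 groups of a member, tissue and treatment, 5 had a sample far from the others by Dixon's criterion. Its chance rate of about 1 in 20 groups assumes normal values. Afp accounted for 3 of the 5, all in livers, where most Afp values lay below the background limit, so that rate does not apply to them. Liver 748 (placebo) stood at 6.18, with the next liver at 5.10. Liver 745 (RAD001) stood at 6.47, with the next at 5.03. Liver 742 (combination) stood at 8.71, above the placebo tumour mean of 8.14, with the next liver at 5.58. The same liver held Gpc3 at 9.92 and Golm1 at 7.83, with Spink1 at 5.06 and Sox9 at 4.50 and a mean of hepatocyte function genes of 12.41, inside the range of livers. No tumour of animal 742 was analysed here.

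The other 2 were the tumour of animal 693 (BEZ235), with Gpc3 at 7.36 (next animal 10.64) and Spink1 at 9.00 (next animal 11.58). Its hepatocyte function genes averaged 11.97, the highest of all tumours. The cause was not tested for any of the 5.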

How the results depend on the processing

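Of 1852 values of single members under other settings, 1824 kept their side of the limit and their direction where they had passed, 23 no longer passed, 5 newly passed and 0 of those that had passed changed sign. Another 119 changes of sign were among values past no limit. Those that crossed the limit concerned Sox9, Afp under RAD001 and the combination, Gpc3 under RAD001 and the combination, and the member correlations, and the cause was not tested. Beside those in the report, Sox9 under BEZ235 did not pass without the filter (0.72, adjusted p = 0.0527), with tumours unaveraged (0.72, adjusted p = 0.0535), with the lowest-numbered tumour (0.56, adjusted p = 0.0667) or without animals 693 and 759 (0.62, adjusted p = 0.141).

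Leaving out each animal in turn gave 4 to 5 members past the limit between tumour and liver for placebo and for BEZ235, 3 to 4 for RAD001, 2 to 4 for the combination, and 0 to 0 in the other 12 comparisons. Over all genes, the same fits gave 3257 to 3538 past the limit for placebo and 2105 to 2842 for BEZ235. They gave 2513 to 3022 for RAD001, 1264 to 2104 for the combination and 0 to 38 in the other comparisons. The animal as a fixed replicate block, in animals with both tissues, changed the call of Sox9 under BEZ235 (0.62, adjusted p = 0.0711), Gpc3 under RAD001 (2.14, adjusted p = 0.0893) and Afp under the combination (2.16, adjusted p = 0.0457), and no other.

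The count of correlated pairs, 5 of 10, fell to 0 without animals 693, 759, 730 and 732, to 4 without the 2 farthest animals, and was 6 with treatment means kept. There Gpc3 with Spink1 had r = 0.36 (adjusted p = 0.125), and Gpc3 with Sox9 and Spink1 with Sox9 both r = 0.47 (adjusted p = 0.0457). Without the 4 animals Afp with Golm1 had r = 0.42 (adjusted p = 0.294), Gpc3 with Spink1 0.23 (adjusted p = 0.494) and Golm1 with Spink1 0.61 (adjusted p = 0.0601). Leaving these animals out takes away low values and leaves fewer animals for the test, and the part of each in the fall to 0 was not tested.

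Over all genes, treated against placebo tumours gave 9 (BEZ235), 18 (RAD001) and 19 (combination) in the fit on all 8 groups, against 0 each, without a member among them. With tumours unaveraged these were 1 for BEZ235 and 10 for the combination, and testing each probe gave 1 for BEZ235. Combination against placebo livers gave 29 genes, and 44 on the deposited values, 16 without background correction and 13 in the fit on all 8 groups. It gave 14 to 38 on leaving out each animal, with 14, 15, 16, 18 and 19 without 726, 771, 764, 696 and 748. RAD001 against placebo livers gave 1 in that fit, against 0, and combination against RAD001 tumours 10, against 2. Beside the combination count without animal 775 in the report, the other counts that moved by over 1.5 times lay between 0 and 7. Without the filter 7 members were tested. Dim probes limit Cd24a, Krt19, Sox9 and Afp in liver.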
